A study of Mus musculus with 12 samples.

Results

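The genes described here act in mitosis: the cyclins and kinases that start it, the checkpoint that times chromosome separation, the kinetochore, the spindle, and the machinery that divides the cell. The 39 genes came from a list of names, and each gene was read from one probe set, the one with the highest mean over all arrays. Of the 39 genes, 38 were measured, among 18193 genes in all, and Ccnb1 was not analysed here because the platform annotation used names no probe set for it. The 38 genes had 87 probe sets, with 13 genes on 1 probe set and 25 on several.

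The cells were C3H10T1/2, a mouse embryonic line of mesenchymal type that can be driven towards bone, cartilage, fat and muscle fates. The study changed the level of miR-140, a microRNA best known from cartilage, in both directions, in 2 experiments of 6 arrays with 3 arrays a group. In the overexpression experiment one group received siRNA-140, which acts as a miR-140 mimic, and its control group received siRNA-96. In the suppression experiment one group received an LNA anti-microRNA against miR-140 (anti-miR-140 below), which blocks the cells' own miR-140, and its control group an LNA anti-microRNA against miR-449 (anti-miR-449). LNA stands for locked nucleic acid, a chemistry that makes an oligonucleotide bind its target tightly. Each control was therefore itself a transfected oligonucleotide named after another microRNA, and no untransfected group is analysed here. Nothing in the labels says that the arrays of a group came from separate cultures, so p-values measure only the spread between these arrays, which may be technical. The labels used here give no dose and no time after transfection.

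Dividing cells make the RNA of most mitosis genes late in the cycle, from S phase into G2 and mitosis, and switch it off in quiescence. Much of this timing is known to run through 2 short promoter elements. The cell cycle genes homology region, CHR, is bound by the DREAM repressor in resting cells and by MuvB complexes with B-MYB and FOXM1 in dividing ones, and the CCAAT box is bound by the activator NF-Y. Because whole cultures were measured, a lower share of cycling cells and less of a transcript per cycling cell cannot be told apart in any value below.

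The promoters are shown first because most of these genes, whose choice used no sequence, held these elements. RefSeq windows on GRCm38.p6, which run from 250 bases before the gene start to 50 after it, were at hand for 32 of the 38 genes, with 35 windows in all. Both strands were searched for the usual CHR letters, TTTGAA. A rarer form of that element, TTCGAA, reads the same in both directions and was counted once. The search also took in the CCAAT box and the E2F-type letters TTTCCCGC, TTTGGCGC and TTTCGCGC, which are typical of genes switched on earlier, at the entry to S phase. In the sequences that follow, written along the gene's strand, capitals mark each match.

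Ccnb2 encodes cyclin B2, an activating partner of the kinase Cdk1. Its window lies at chr9:70421505-70421804 on the minus strand and holds 3 CCAAT boxes between a distant CHR motif, at base -167, and a second one just past the start.
Ccnb2: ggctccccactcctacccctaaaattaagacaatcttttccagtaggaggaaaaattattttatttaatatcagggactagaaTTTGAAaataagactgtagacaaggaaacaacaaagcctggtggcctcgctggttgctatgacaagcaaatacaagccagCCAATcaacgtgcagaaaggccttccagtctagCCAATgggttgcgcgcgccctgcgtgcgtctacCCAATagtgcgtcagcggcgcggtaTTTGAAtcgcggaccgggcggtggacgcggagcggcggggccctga
Cdk1, the kinase that drives entry into mitosis, has its window at chr10:69352863-69353162 on the minus strand. It is the one window of the set that also holds an E2F-type match.
Cdk1: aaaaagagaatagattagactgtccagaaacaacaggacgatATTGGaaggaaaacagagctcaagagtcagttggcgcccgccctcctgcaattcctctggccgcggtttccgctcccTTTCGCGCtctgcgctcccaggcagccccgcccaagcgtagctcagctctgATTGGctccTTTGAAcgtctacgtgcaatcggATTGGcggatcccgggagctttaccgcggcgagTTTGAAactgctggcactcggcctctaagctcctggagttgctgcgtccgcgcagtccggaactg
Plk1 encodes polo-like kinase 1, which acts in centrosome maturation, spindle assembly and cytokinesis, and its window at chr7:122159185-122159484 on the plus strand holds one CHR and one CCAAT match.
Plk1: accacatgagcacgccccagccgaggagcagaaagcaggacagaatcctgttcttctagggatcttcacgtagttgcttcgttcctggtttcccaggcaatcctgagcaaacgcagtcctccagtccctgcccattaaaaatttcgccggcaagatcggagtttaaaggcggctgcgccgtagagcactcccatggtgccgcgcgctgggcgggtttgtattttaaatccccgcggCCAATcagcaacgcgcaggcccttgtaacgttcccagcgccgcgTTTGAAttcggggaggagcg
Top2a, topoisomerase II alpha, untangles and compacts mitotic chromosomes. Its window at chr11:99024140-99024439 on the minus strand holds the most matches of the 5 windows shown, 4 CHR and 6 CCAAT.
Top2a: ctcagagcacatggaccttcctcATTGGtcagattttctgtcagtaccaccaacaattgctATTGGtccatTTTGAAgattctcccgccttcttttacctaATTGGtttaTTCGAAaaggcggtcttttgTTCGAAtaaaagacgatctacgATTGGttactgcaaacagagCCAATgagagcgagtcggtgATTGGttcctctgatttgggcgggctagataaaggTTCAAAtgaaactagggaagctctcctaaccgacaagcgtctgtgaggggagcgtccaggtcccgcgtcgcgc
Birc5 encodes survivin, a subunit of the chromosomal passenger complex, and stands for the genes without a match. Its window at chr11:117848987-117849286 on the plus strand holds none of these letters.
Birc5: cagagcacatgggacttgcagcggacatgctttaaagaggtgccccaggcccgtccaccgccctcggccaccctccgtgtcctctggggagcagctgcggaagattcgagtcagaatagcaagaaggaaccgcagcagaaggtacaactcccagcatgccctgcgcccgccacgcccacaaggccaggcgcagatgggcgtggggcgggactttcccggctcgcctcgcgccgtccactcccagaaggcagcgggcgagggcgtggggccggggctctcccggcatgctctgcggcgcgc

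Of the 32 genes, 26 had a CHR motif, 23 had a CCAAT box and 22 had both. By window, a CHR motif stood in 82.9% of the mitosis genes' windows against 19.2% of all 32851 windows, a CCAAT box in 74.3% against 37.4%, and both together in 71.4% against 7.52%. The E2F-type letters were in 2.86% of the mitosis windows and 1.84% of all windows. The CHR matches clustered at the gene start: 24 of the 32 genes (75%) had one starting at base -50 or later, counting the first base of the RefSeq gene as 0, against 5.29% of all 27025 genes. Over the first window of each gene the 36 CHR matches had a median position of 2 and the 53 CCAAT boxes one of -71. In 22 genes a CCAAT box stood before a CHR motif. All 6 midzone and cytokinesis genes with a window had a CHR motif, as did Mki67, Top2a, Ccnb2, Cdk1 and Cdc25b, whereas Birc5, Mad2l1, Pttg1, Nuf2 and Nusap1 had neither element in this window. A match describes letters in a window and does not show that a factor binds there.

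The same search in related lists gave other mixtures. Of 69 other mitosis genes with a window, 39 had a CHR motif, 44 a CCAAT box and 27 both. Of 31 genes of the G1/S transition and DNA replication, 4 had a CHR motif, 20 a CCAAT box and 12 an E2F-type match. Among 14 subunits of the anaphase-promoting complex, which are mostly expressed throughout the cycle, 2 had a CHR motif and 0 had both elements.

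**Figure D1:**
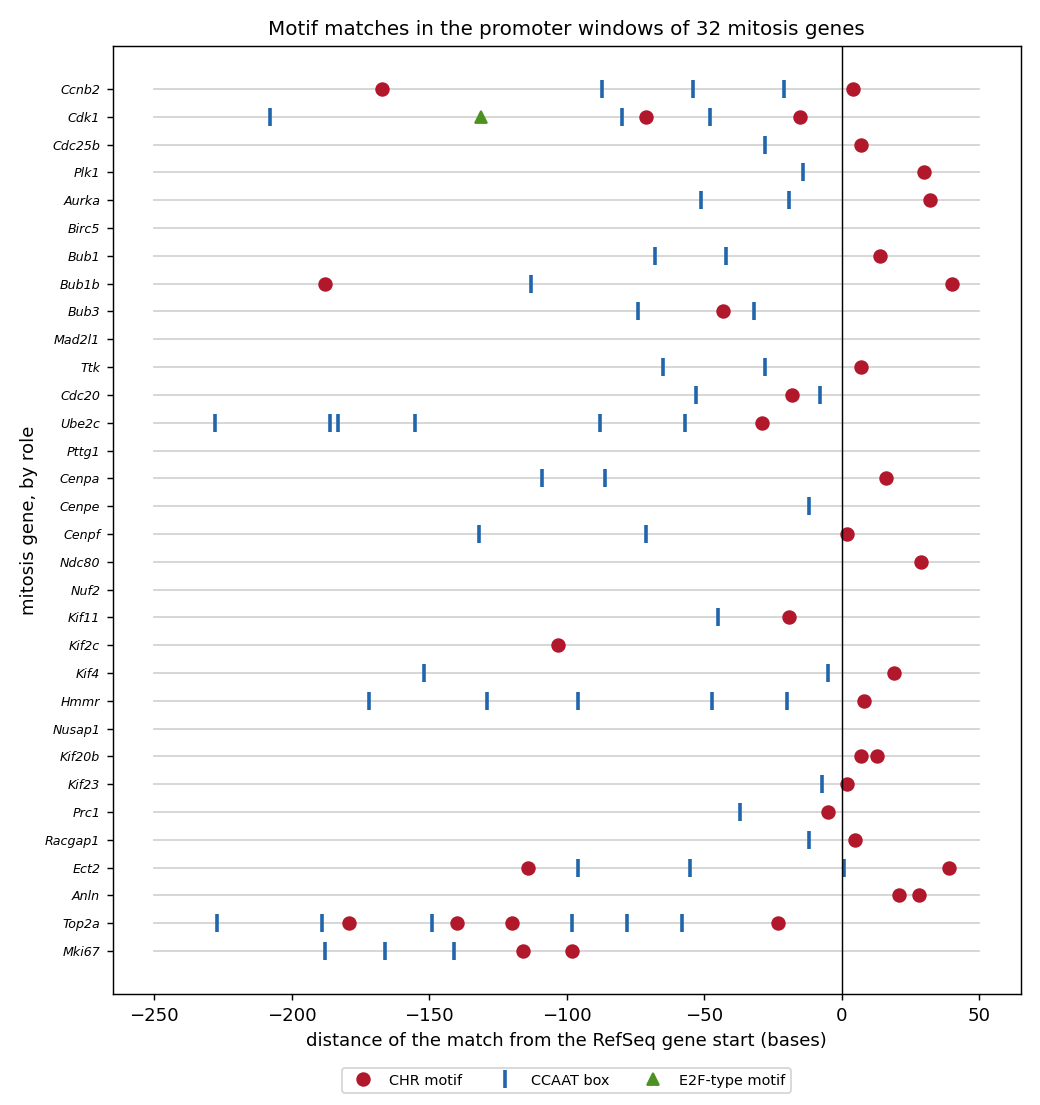
Matches to the CHR motif (red circles), the CCAAT box (blue bars) and the E2F-type letters (green triangle) in one promoter window of each of 32 mitosis genes; the x axis is the distance in bases from the RefSeq gene start and genes run down the page by role. The CHR matches of 24 genes lie from base -50 onward, and 22 genes have a CCAAT box before a CHR motif.

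The 38 probe sets had mean percentiles between 69.1 (Cdc25c) and 98.5 (Pttg1) among all probe sets of an array. Each had been taken as the brightest of its gene, and other probe sets of the same genes had means as low as 1.892 (Racgap1), so these percentiles describe the probe sets and not the amounts of RNA. Of 13 mesenchymal markers, 11 were above the array median on all arrays, with a median percentile of 97.7. Against this, 4 of 14 epithelial, 5 of 10 macrophage, 1 of 10 endothelial, 3 of 10 skeletal muscle, 5 of 8 fat and 4 of 10 cartilage markers were above the median on all arrays.

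The siRNA arrays did not sort by label. With the mitosis genes left out, the first principal component of the 6 siRNA arrays, 53.21% of their variance, put siRNA-140 replicates 1 and 2 at -25.19 and -34.18 and replicate 3 at 28.41, while siRNA-96 replicate 1 stood at -33.11 and replicates 2 and 3 at 32.39 and 31.68. Over the remaining probe sets siRNA-140 replicate 3 correlated best with siRNA-96 replicate 2, at 0.9976. There siRNA-96 replicate 1 correlated best with siRNA-140 replicate 1, at 0.9952. The libraries labelled siRNA-140 replicate 3 and siRNA-96 replicate 1 thus lay with the other group, and the counts and the main named genes of the overexpression experiment are given with them and without them. On the first component of the anti-miR arrays, 26.72% of their variance, the anti-miR-140 arrays stood at -5.53, -3.98 and -11.91. The control array anti-miR-449 replicate 1 stood at -15.15, on the same side, and correlated best with anti-miR-140 replicate 3, at 0.9976, while anti-miR-449 replicates 2 and 3 stood at 13.35 and 23.21. Median differences without each of the control arrays are given below. The arrays siRNA-96 replicate 1 and anti-miR-449 replicate 1 had the highest 18S ribosomal RNA control signals of their experiments, 10.47 and 10.23 on the log2 scale, against 5.40 to 7.86 and 5.92 to 6.75 on the other arrays.

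The overexpression experiment asks whether more miR-140 activity moves these genes. In the fit of all 12 arrays, 0 of the 38 mitosis genes passed limma's adjusted p under 0.05 in siRNA-140 cells against siRNA-96 cells, and 0% of all 45037 probe sets did. At an unadjusted p under 0.05 the count was 0 of 38, against 5.09% of all probe sets. The 38 differences ran from -0.190 (Aurkb) to 0.190 (Kif20b) on the log2 scale, 19 above 0 and 19 below, with a median of 0.003 beside 0.027 over all genes. The 95% intervals of the 38 differences reached no lower than -0.479 and no higher than 0.404. The lowest adjusted p (limma, Benjamini-Hochberg) was 0.880, shared by Kif20b, Cenpf, Ube2c and Aurkb.

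The entry genes were at like levels on most arrays. Cdk1 gave log2 values of 10.12, 10.37 and 10.41 on the siRNA-140 arrays, against 10.33, 10.38 and 10.32 on the siRNA-96 arrays. Its lowest value was siRNA-140 replicate 1, and the groups overlapped. Cdc25b, a phosphatase that activates Cdk1, gave 7.76, 7.62 and 7.75 with siRNA-140, against 7.81, 7.74 and 7.85 with siRNA-96, a difference of -0.090 ± 0.096 (SE, n = 3 each). The lowest Cdc25b value belonged to siRNA-140 replicate 2 and the highest to siRNA-96 replicate 3, with overlap between. Over the cyclins, Cdk1 and its activators, 1 of 5 genes (Ccnb2, 0.073) was above 0 and 4 were below.

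Among the mitotic kinases, Plk1 gave 8.40, 8.76 and 8.60 in siRNA-140 cells, against 8.45, 8.56 and 8.60 in siRNA-96 cells. The siRNA-140 arrays held both the lowest and the highest Plk1 value. Aurkb, the kinase of the chromosomal passenger complex that corrects faulty spindle attachments, gave 6.98, 7.45 and 7.62 with siRNA-140, against 7.48, 7.56 and 7.58 with siRNA-96. Its difference of -0.190 ± 0.134 (SE) came mainly from siRNA-140 replicate 1, since the other 5 arrays lay between 7.45 and 7.62. A second Aurkb probe set, with a mean of 7.578 beside 7.729, differed by only 0.013. Birc5 gave 10.11, 10.10 and 10.29 with siRNA-140, against 10.15, 10.26 and 10.39 with siRNA-96, a difference of -0.100 ± 0.094 (SE), and the groups overlapped. Aurka, the centrosomal Aurora kinase, its activator Tpx2, and Incenp, the scaffold of the passenger complex, differed by 0.030, 0.057 and 0.023, so that 4 of these 6 genes were above 0.

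In the spindle checkpoint and anaphase group 2 of 8 genes were above 0. Ube2c, the ubiquitin-conjugating enzyme that works with the anaphase-promoting complex, gave 9.44, 9.76 and 9.86 with siRNA-140, against 9.78, 9.88 and 9.86 with siRNA-96. Again siRNA-140 replicate 1 was the lowest of the 6 arrays, and the groups overlapped. The difference was -0.153 ± 0.107 (SE, limma adjusted p = 0.880). The checkpoint genes Bub1, Bub1b, Bub3, Mad2l1 and Ttk, the activator Cdc20 and securin (Pttg1) had differences between -0.043 and 0.057.

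Cenpf and Kif20b were the 2 members whose groups did not overlap, both with siRNA-140 higher and 0 with siRNA-140 lower; over all genes 3.31% were separated in the higher and 2.49% in the lower direction. Cenpf, a large kinetochore and nuclear matrix protein, gave 7.55, 7.60 and 7.54 with siRNA-140, against 7.37, 7.43 and 7.45 with siRNA-96, a difference of 0.147 ± 0.095 (SE). Kif20b, a kinesin of the late midzone that acts in abscission, gave 8.20, 8.25 and 8.03 with siRNA-140, against 8.0, 8.01 and 7.90 with siRNA-96. The lowest siRNA-140 value of Kif20b lay 0.02 above the highest siRNA-96 value, and its difference of 0.190 ± 0.099 (SE) had a limma adjusted p of 0.880. The gap of Kif20b was thus narrow beside its SDs of 0.115 (siRNA-140) and 0.061 (siRNA-96). For Cenpf these SDs were 0.032 and 0.042, and its SE also took in the anti-miR arrays, with SDs of 0.150 and 0.081. Other probe sets of both genes were dimmer. Those of Cenpf, with means of 4.621 and 3.437, differed by 0.127 and -0.123. Those of Kif20b, with means of 3.076, 2.017 and 1.984, differed by -0.010, 0.043 and -0.107.

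Of the remaining spindle and cytokinesis genes, Kif11, the motor that pushes spindle poles apart, gave 7.32, 7.47 and 7.61 with siRNA-140, against 7.08, 7.58 and 7.39 with siRNA-96. Its lowest value was siRNA-96 replicate 1. Nusap1, which bundles spindle microtubules, gave 8.55, 8.59 and 8.54 with siRNA-140, against 8.39, 8.59 and 8.39 with siRNA-96. In Nusap1, siRNA-96 replicate 2 reached the top siRNA-140 value. Prc1, the microtubule crosslinker of the midzone, gave 8.86, 9.09 and 9.18 with siRNA-140, against 9.02, 9.24 and 9.22 with siRNA-96. Anln, anillin, which organises the contractile ring, gave 10.36, 10.60 and 10.45 with siRNA-140, against 10.37, 10.41 and 10.41 with siRNA-96. All 4 overlapped, with differences of 0.117 ± 0.124 for Kif11, 0.103 ± 0.096 for Nusap1, -0.117 ± 0.117 for Prc1 and 0.073 ± 0.090 for Anln (SE). Over the 7 midzone and cytokinesis genes 6 were above 0, and over the 5 spindle genes 2 were.

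The chromosome genes differed little between the groups. Mki67, the antigen Ki-67 that is used to mark cycling cells, gave 9.36, 9.32 and 9.32 with siRNA-140, against 9.26, 9.40 and 9.40 with siRNA-96, a difference of -0.020 with the siRNA-140 arrays inside the siRNA-96 range. Top2a gave 10.13, 10.54 and 10.38 with siRNA-140, against 10.38, 10.38 and 10.20 with siRNA-96, with both extremes in siRNA-140 cells. Its difference was 0.030, and the 95% intervals of both genes lay between -0.212 and 0.272.

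**Figure D2:**
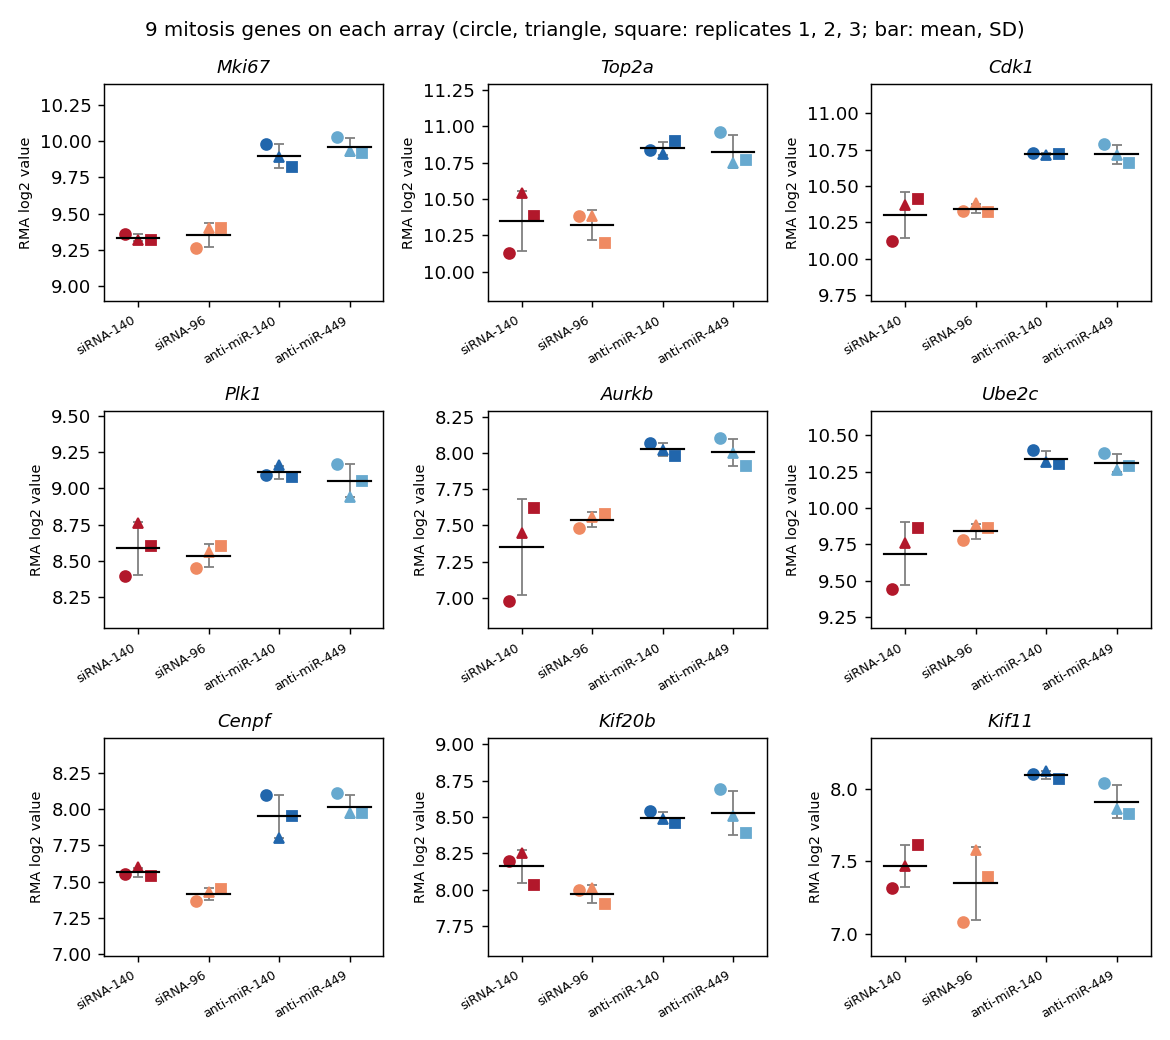
RMA log2 values (y axis, the same span in each panel) of 9 mitosis genes on the 12 arrays, by group along the x axis; circles, triangles and squares are replicates 1, 2 and 3, black bars are group means and grey bars the SD (n = 3). Aurkb, Ube2c and Cdk1 have their lowest value on siRNA-140 replicate 1, and in Cenpf and Kif20b the siRNA-140 points lie above all siRNA-96 points.

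With siRNA-140 replicate 3 and siRNA-96 replicate 1 both left out, on the other 10 arrays, 4043 probe sets passed limma's adjusted p under 0.05 in siRNA-140 against siRNA-96, 2310 higher and 1733 lower, or 8.98% of those tested. Those 2 arrays were chosen by where they lay over all genes, so part of that number follows from the choice. Of the 38 mitosis genes 0 passed, none with an adjusted p below 0.156. An unadjusted p under 0.05 was reached by 1 gene with siRNA-140 higher and 3 with siRNA-140 lower, against 20.5% of all probe sets in either direction. These were Kif20b at 0.270, Aurkb at -0.355, Kif2c, a kinesin that depolymerises microtubules at kinetochores, at -0.300, and Ube2c at -0.270, with adjusted p-values (limma) of 0.200, 0.156, 0.156 and 0.214. The differences now lay 10 above and 26 below 0, with a median of -0.075 beside 0.035 over all genes, and all 8 genes of the checkpoint and anaphase group were below 0. Kif11 turned to -0.090, beside 0.117 with all arrays, and Birc5 stood at -0.220, beside -0.100, and Prc1 at -0.255, beside -0.117. Cdk1 differed by -0.105, Cdc25b by -0.105, Plk1 by 0.000, Cenpf by 0.135, Nusap1 by 0.080, Anln by 0.070, Mki67 by -0.060 and Top2a by 0.045. Apart from Kif20b, Aurkb, Kif2c and Ube2c the 95% intervals of all 38 genes included 0. With the 4 remaining siRNA arrays alone 3.87% of probe sets were called and again 0 of the 38.

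Further probe sets of the same genes gave other values in this 10-array fit, in which 3 of the 87 were called. At an unadjusted p under 0.05, 1 of the 87 was higher and 9 were lower, against 20.5% of all probe sets in either direction. A second Tpx2 probe set gave 6.96 and 6.98 with siRNA-140 replicates 1 and 2, against 7.62 and 7.53 with siRNA-96 replicates 2 and 3, and 7.53 and 6.96 on the 2 arrays left out. It fell by 0.605 with a limma adjusted p of 0.0052, whereas the brighter Tpx2 probe set differed by 0.020. A second Pttg1 probe set fell by 0.385 (limma adjusted p = 0.0283) beside -0.185 for the brighter one, and a second Anln probe set fell by 0.490 (limma adjusted p = 0.0170) beside 0.070. For these 3 genes the probe sets disagreed in size or sign, and for Tpx2 and Anln the direction could not be settled from these arrays. The second Aurkb probe set differed by -0.165, beside -0.355 for the brighter one, and was not called. Second probe sets of Prc1 at -0.380, beside -0.255, and of Ccna2 at -0.295, beside -0.170, shared the sign of the brighter ones. Neither of them was called. In the 12-array fit 0 of the 87 passed, where limma's adjusted p-values were all 0.880 or higher, and 0 had an unadjusted p under 0.05.

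The suppression experiment asks the reverse question. With anti-miR-140 against anti-miR-449, 0 of 38 mitosis genes passed limma's adjusted p under 0.05, where the same share of all 45037 probe sets was 0%. At an unadjusted p under 0.05 the count was 0 of 38, beside 2.27% of all probe sets. The differences ran from -0.067 (Cenpf) to 0.187 (Kif11), with 31 above 0, 6 below and Cdk1 at 0.000, and a median of 0.052 beside -0.003 over all genes. Their 95% intervals spanned -0.270 to 0.454 in all. These intervals, and the SEs and p-values of the same fit, also took in the spread of the siRNA arrays. With the anti-miR arrays fitted by themselves, again 0 of 38 passed limma's adjusted p under 0.05, beside 0% of all probe sets. The groups of Ccna2 and Kif11 did not overlap, with anti-miR-140 higher in both and 0 genes separated the other way, beside 3.29% and 4.42% of all genes in the higher and lower directions.

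Ccna2 encodes cyclin A2, the cyclin of S phase and early mitosis. It gave log2 values of 10.26, 10.20 and 10.22 with anti-miR-140, against 10.16, 10.13 and 10.15 with anti-miR-449. The log2 difference was 0.080 ± 0.103 (SE). The anti-miR arrays of a group differed little, with SDs of 0.031 (anti-miR-140) and 0.015 (anti-miR-449). The SE also took in the siRNA arrays, with SDs of 0.155 (siRNA-140) and 0.15 (siRNA-96). With the anti-miR arrays fitted by themselves the SE was 0.066. A second Ccna2 probe set gave 10.27, 10.25 and 10.26 with anti-miR-140, against 10.22, 10.20 and 10.29 with anti-miR-449. Its groups overlapped, with a difference of 0.023. Cdk1 gave 10.73, 10.71 and 10.72 with anti-miR-140, against 10.79, 10.71 and 10.66 with anti-miR-449. The control arrays of Cdk1 lay on both sides of the anti-miR-140 arrays. None of the 5 cyclin and Cdk1 genes was below 0.

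The 6 kinase and passenger genes were all above 0, from 0.020 (Aurkb) to 0.107 (Incenp). Incenp gave 10.22, 10.15 and 10.17 with anti-miR-140, against 10.24, 9.96 and 10.02 with anti-miR-449. Plk1 gave 9.09, 9.16 and 9.08 with anti-miR-140, against 9.17, 8.94 and 9.05 with anti-miR-449. In both genes anti-miR-449 replicate 1 lay above the anti-miR-140 arrays and replicates 2 and 3 lay below them.

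Of the 8 checkpoint and anaphase genes 7 were above 0, and Bub3, which carries Bub1 and BubR1 to kinetochores, was not. Bub3 gave 10.47, 10.54 and 10.39 with anti-miR-140, against 10.50, 10.44 and 10.57 with anti-miR-449, with full overlap and a difference of -0.037. Mad2l1, the checkpoint protein that holds back Cdc20, had the largest difference of the 8 at 0.12.

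At the kinetochore, Nuf2, a subunit of the Ndc80 complex that grips microtubules, gave 8.16, 8.16 and 8.23 with anti-miR-140, against 8.19, 7.84 and 8.01 with anti-miR-449, or a log2 difference of 0.170 ± 0.116 (SE). Cenpa, the histone H3 variant that marks the centromere, gave 9.30, 9.19 and 9.18 with anti-miR-140, against 9.28, 8.98 and 9.01 with anti-miR-449, or a log2 difference of 0.133 ± 0.122 (SE). Cenpf gave 8.10, 7.80 and 7.95 with anti-miR-140, against 8.11, 7.97 and 7.97 with anti-miR-449. In Nuf2 and Cenpa the first control array stood with the anti-miR-140 arrays, while in Cenpf the lowest array was anti-miR-140 replicate 2.

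Kif11 gave 8.10, 8.12 and 8.07 with anti-miR-140, against 8.04, 7.86 and 7.83 with anti-miR-449. All 3 anti-miR-140 arrays lay above the controls, by as little as 0.03, and the difference of 0.187 ± 0.124 (SE) had a limma adjusted p of 1. When the 6 anti-miR arrays were fitted by themselves, Kif11 was the 1 member with an unadjusted p under 0.05, beside 4.77% of all probe sets, and its adjusted p was 0.974. A second Kif11 probe set gave 7.62, 7.62 and 7.49 with anti-miR-140, against 7.34, 7.10 and 7.38 with anti-miR-449, or a log2 difference of 0.303 ± 0.133 (SE) with a limma adjusted p of 1. The third Kif11 probe set gave 7.58, 7.64 and 7.62 with anti-miR-140, against 7.53, 7.31 and 7.28 with anti-miR-449, a difference of 0.240. All 3 Kif11 probe sets were without overlap, and none passed the test. In the 12-array fit 3 of all 87 probe sets had an unadjusted p under 0.05 here, and 0 passed after adjustment. They were the second Kif11 probe set, with a mean of 7.129, and dim probe sets of Kif20b at 0.347 and Cenpa at -0.273. The dim ones had means of 3.076 and 2.266, below all array medians, which ran from 3.96 to 4.38.

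The cytokinesis genes were mixed. Ect2, the exchange factor that activates RhoA at the cleavage furrow, gave 8.70, 8.70 and 8.76 with anti-miR-140, against 8.75, 8.40 and 8.56 with anti-miR-449, or a log2 difference of 0.150 ± 0.125 (SE). Kif20b gave 8.54, 8.49 and 8.46 with anti-miR-140, against 8.69, 8.51 and 8.39 with anti-miR-449, a difference of -0.033. Kif23, the motor of the centralspindlin complex, gave 8.36, 8.34 and 8.42 with anti-miR-140, against 8.46, 8.43 and 8.29 with anti-miR-449, a difference of -0.020. All 3 overlapped, and each had its highest or nearly highest value on anti-miR-449 replicate 1.

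Mki67 gave 9.98, 9.89 and 9.82 with anti-miR-140, against 10.03, 9.93 and 9.92 with anti-miR-449, a difference of -0.063. Top2a gave 10.84, 10.81 and 10.90 with anti-miR-140, against 10.96, 10.75 and 10.77 with anti-miR-449, a difference of 0.023. The groups overlapped in both chromosome genes.

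**Figure D3:**
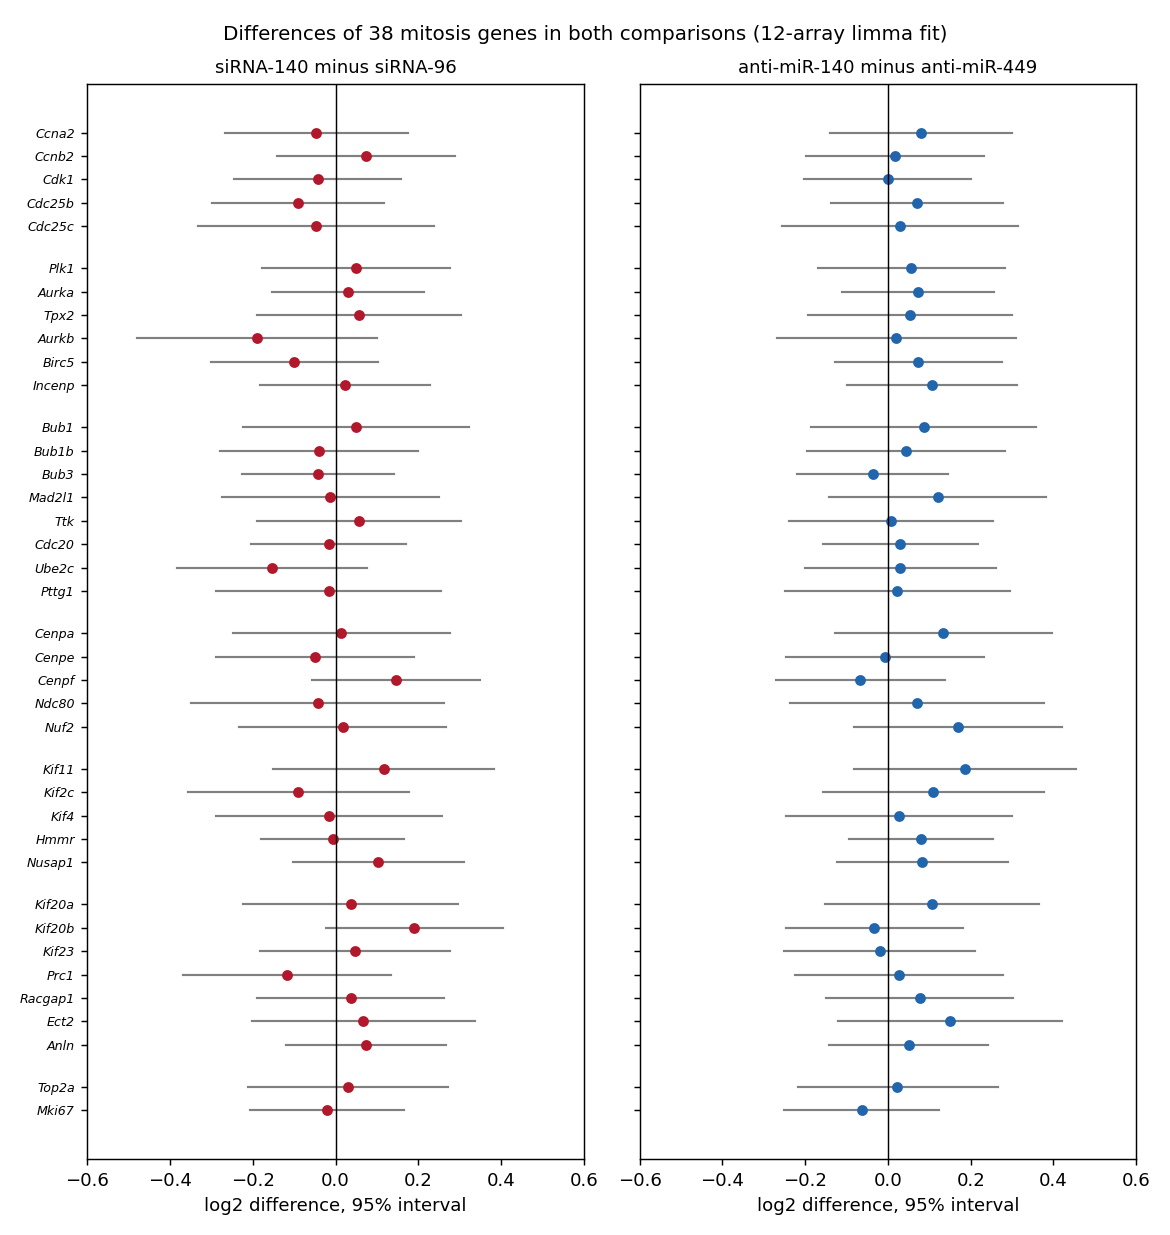
Log2 differences (points) with 95% intervals (lines) of the 38 mitosis genes from the 12-array limma fit, by role down the page, for siRNA-140 minus siRNA-96 (left) and anti-miR-140 minus anti-miR-449 (right). Each of the intervals includes 0; 19 points on the left and 31 on the right lie above 0.

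The difference of the comparisons, the siRNA contrast minus the anti-miR contrast, was called for 0 of 38 genes, where 0% of all probe sets were called by limma's adjusted p under 0.05, and at an unadjusted p under 0.05 for 0 of 38 beside 2.94%. It ran from -0.210 (Aurkb) to 0.223 (Kif20b), with a median of -0.045 and a smallest adjusted p of 0.997. Without the 2 siRNA arrays 0 of 38 were called, against 4.41% of all probe sets.

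Although the groups were not told apart by these genes, the genes were not independent of each other from array to array. Within the siRNA experiment each gene was set against its own mean over the 6 arrays, and the mean deviation of the 38 genes was -0.129, 0.052 and 0.080 on the siRNA-140 arrays and -0.080, 0.071 and 0.006 on the siRNA-96 arrays. The mean over all 18193 genes was -0.012, 0.056 and -0.014 on the siRNA-140 arrays and -0.019, -0.011 and 0.000 on the siRNA-96 arrays. Over genes with a mean of at least 8 it was -0.010, 0.103 and -0.012 with siRNA-140. With siRNA-96 it was -0.034, -0.006 and -0.041. The array labelled siRNA-140 replicate 1 alone had the lowest value of the 6 in 19 of 38 genes (50%), beside 15.3% of all genes and 17.6% of genes with a mean of at least 8. The arrays labelled siRNA-140 replicate 3 and siRNA-96 replicate 2 were the sole lowest in 0 of 38, beside 13.6% and 16.5% of all genes. For genes with a mean of at least 8 these shares were 9.27% and 10.3%. The low siRNA arrays were therefore one of each label.

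Within the anti-miR experiment the spread lay in the control group. The mean deviation was 0.048, 0.000 and 0.030 on the anti-miR-140 arrays and 0.096, -0.077 and -0.097 on the anti-miR-449 arrays, where the means over all genes stayed between -0.013 and 0.010. The array labelled anti-miR-449 replicate 1 was above the gene mean in 37 of 38 genes. It was the sole highest in 20 of the 38 (52.6%, beside 17.0% of all genes and 22.5% of genes with a mean of at least 8). Of the 4015 genes with a mean of at least 8, 2514 were above their mean on that array. The arrays labelled anti-miR-449 replicates 2 and 3 were below the gene mean in 35 and 37 of 38, beside 1885 and 2845 of the same 4015 genes. Replicate 3 was the sole lowest in 21 (55.3%, beside 22.8% of all genes and 35.1% of genes with a mean of at least 8). The median difference of the 38 genes moved with these arrays: it was 0.109 without anti-miR-449 replicate 1, 0.024 without replicate 2 and 0.019 without replicate 3, beside 0.052 with all. The median SD between replicates was 0.045 for the 38 genes in anti-miR-140 cells and 0.123 in anti-miR-449 cells. For all genes with a mean of at least 8 these SDs were 0.050 and 0.066. In siRNA-140 and siRNA-96 cells the mitosis genes had median SDs of 0.156 and 0.101, and the genes with a mean of at least 8 had 0.159 and 0.133. The high 18S signal of anti-miR-449 replicate 1 went with the array where these genes were highest, and that of siRNA-96 replicate 1 with one where they were low; its part in the values was not tested.

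**Figure D4:**
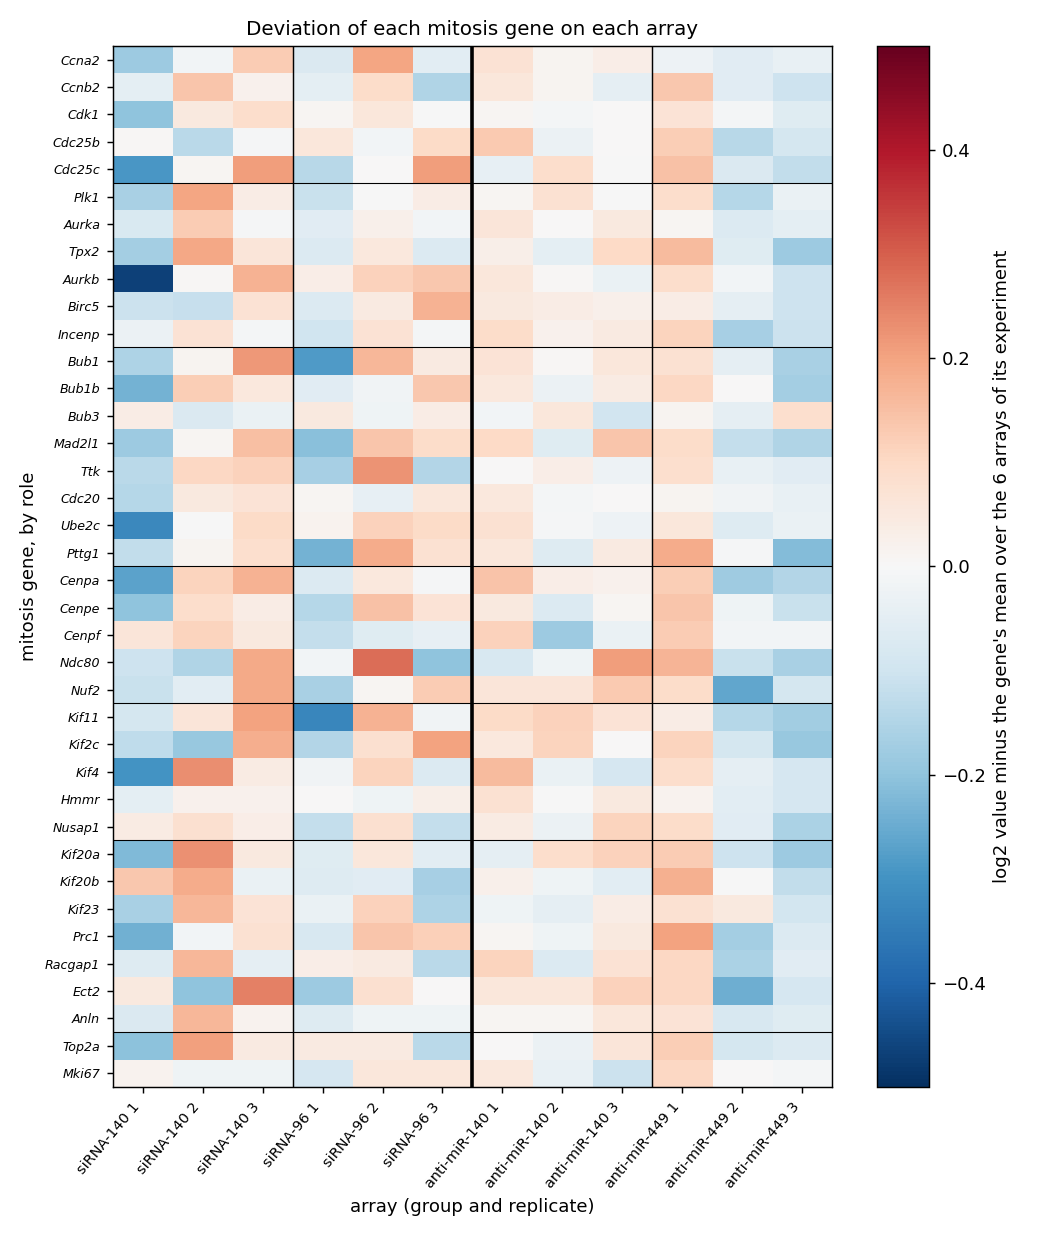
Each cell is the log2 value of a mitosis gene (rows, by role) on an array (columns) minus the mean of that gene over the 6 arrays of its experiment; red is above and blue below. Column anti-miR-449 1 is above the gene mean in 37 of 38 rows and column anti-miR-449 3 below it in 37. Of 4015 genes with a mean of at least 8, 2514 and 2845 lie that way on these arrays.

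After group means were taken out, the mean pairwise correlation among the 38 genes was 0.369 over the 6 siRNA arrays and 0.645 over the 6 anti-miR arrays. For 84 other mitosis genes it was 0.183 and 0.298, for 39 G1/S and replication genes 0.287 and 0.341, and for the genes with a mean of at least 8 it was 0.104 and 0.099. All of these points share the same 6 arrays and the normalization between them, so the coefficients describe these arrays only. The other mitosis genes had mean deviations of -0.055, 0.058 and 0.062 on the siRNA-140 arrays and -0.094, 0.047 and -0.018 on the siRNA-96 arrays. On the anti-miR-140 arrays they had 0.048, 0.000 and 0.039, and on the anti-miR-449 arrays 0.059, -0.063 and -0.083.

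**Figure D5:**
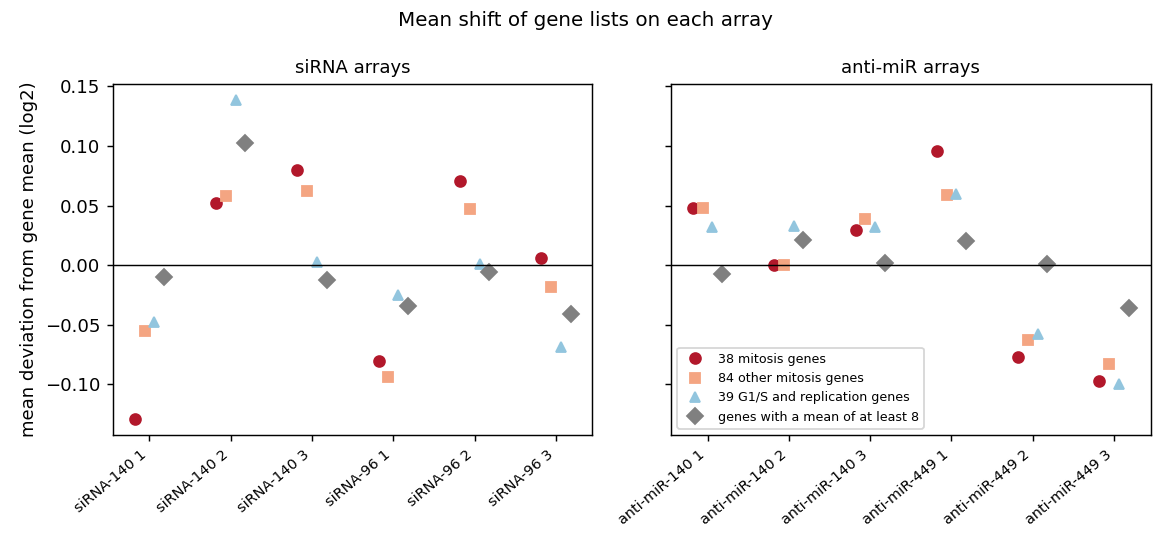
Mean deviation (log2, y axis) of 4 gene lists from their gene means on each array (x axis), siRNA arrays on the left and anti-miR arrays on the right. The 38 mitosis genes (red circles) range from -0.129 to 0.080 on the siRNA arrays and from -0.097 to 0.096 on the anti-miR arrays.

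Across the experiments the 38 genes were lower on the siRNA arrays than on the anti-miR arrays as deposited, by a median of 0.512 on the log2 scale, from -0.813 (Cdc25b) to -0.303 (Bub3). In 36 of 38 genes (94.7%) every siRNA array lay below every anti-miR array, beside 42.7% of all genes. The share was 52.5% of genes with a mean of at least 8. It was 72.6% of the other mitosis genes and 79.5% of the G1/S and replication genes. All genes shared much of this shift: their median was -0.317, and the array medians were 3.96 to 4.02 in the siRNA experiment against 4.32 to 4.38 in the anti-miR experiment. After each array was centred on its median the mitosis genes differed by a median of -0.148 and all genes by 0.047. The median was -0.156 for 8 CDK inhibitors, -0.110 for the other mitosis genes and -0.082 for the G1/S and replication genes. For the anaphase-promoting complex it was -0.070 and for the cell cycle transcription factors -0.030. Every siRNA array then lay below every anti-miR array in 6 of 38 genes (15.8%), beside 6.42% of all genes. The share was 16.7% of the other mitosis genes and 10.3% of the G1/S and replication genes. Every siRNA array lay above in 0 of 38 genes, beside 1943 of all 18193. Experiment and normalization cannot be told apart here, and no test was made.

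Other genes of the pathway were read from lists written from general knowledge. In the 12-array fit 0 genes of these lists passed limma's adjusted p under 0.05 in either comparison: 84 other mitosis genes, 15 subunits of the anaphase-promoting complex, 23 cell cycle transcription factors, 39 G1/S and replication genes and 8 CDK inhibitors. Foxm1, an activator of late cell cycle genes, differed by 0.013 between siRNA-140 and siRNA-96 and by 0.063 between anti-miR-140 and anti-miR-449. Its partner Mybl2 (B-MYB) differed by 0.040 and -0.023, E2f1 by -0.063 and 0.017, the CDK inhibitor Cdkn1a (p21) by 0.003 and -0.093, and the checkpoint kinase Chek1 by 0.053 and 0.130. Ccne2, cyclin E2, differed by 0.063 and 0.263. At an unadjusted p under 0.05 the siRNA comparison held Ncapg2, a condensin II subunit, at 0.25 and Aspm, a spindle pole protein, at 0.193 among the other mitosis genes, and Lin37, a MuvB subunit, at 0.257. The anti-miR comparison held Ccne2 and the MuvB subunit Lin9, at 0.307.

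On the same 10 arrays, 2 transcription factors of the list passed limma's adjusted p under 0.05. E2f5, a pocket-protein partner of the repressive E2F class, gave 8.48 and 8.27 with siRNA-140 replicates 1 and 2, against 7.23 and 6.93 with siRNA-96 replicates 2 and 3, while the 2 arrays left out gave 7.23 and 8.07. It was higher by 1.295 with an adjusted p of 0.0001. E2f7, an atypical E2F repressor, gave 6.63 and 6.76 with siRNA-140, against 7.46 and 7.38 with siRNA-96 on the same arrays, and was lower by 0.725 (limma adjusted p = 0.0021). On the arrays left out E2f7 gave 7.64 with siRNA-140 and 6.26 with siRNA-96. With all arrays their differences were 0.583 and -0.023, and neither passed. Foxm1 differed by -0.145 on the 10 arrays, Mybl2 by 0.085, E2f1 by -0.090, Cdkn1a by -0.100, Chek1 by 0.070 and Ccne2 by -0.070, none of them called. Of the 84 other mitosis genes, 2 were called higher, the kinetochore gene Dsn1 at 0.490 and the condensin gene Ncapd2 at 0.515, and 3 lower, Gtse1 at -0.495, the condensin gene Ncaph at -0.435 and Psrc1 at -0.515. Of the 39 G1/S and replication genes Ccnd3, cyclin D3, at 0.460 and Rrm2, a ribonucleotide reductase subunit, at 0.445 were called higher. Of these 9 genes only E2f5 and E2f7 passed with the 4 siRNA arrays alone, at adjusted p-values (limma) of 0.0015 and 0.0195. The probe sets chosen for the 38 mitosis genes thus held 0 calls in the fit where 8.98% of all probe sets were called. Among all 87 probe sets of these genes 3 were called.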

How the data were processed

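RNA from C3H10T1/2 cells was hybridised to 12 Affymetrix arrays in 4 groups of 3. The authors deposited log2 values from RMA, as the submitters' processing notes name it; its version, and whether the experiments were normalized together, are not given in the sources used here. Total RNA was extracted on RNeasy columns, per the labels' protocols. Of 45101 probe sets, 64 array controls were left out and 45037 were tested without a filter. The platform annotation gave 34945 of them 1 symbol, 932 several and 9160 none; genes were named from the first kind.

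The means of the 4 groups were estimated from all 12 arrays by limma 3.58.1 (lmFit, eBayes; R 4.3.3), with Benjamini-Hochberg adjustment over all probe sets and calls at an adjusted p under 0.05. The number of arrays limits the precision. The fit was tested on simulated data. Named genes were Mki67, Top2a, Cdk1 and Plk1, in each comparison the 5 members each way with the smallest p, up to 4 genes of each other list, and Foxm1, Mybl2, E2f1, Cdkn1a, Ccne2 and Chek1; the second probe sets, Ccna2, Kif2c and the genes called on 10 arrays were named after their values were seen. The members, the lists and the fit on 10 arrays were chosen with earlier results of these data known. Promoter windows are RefSeq's for GRCm38.p6. The alternatives tried are given at the end.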

Additional observations from a re-analysis of the deposited data

How the results depend on the processing

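In each of the settings tried, 0 of the 38 mitosis genes passed limma's adjusted p under 0.05 in either comparison or in their difference: the arrays of a comparison alone, a further quantile normalization, median centring, brighter probe sets, array weights, robust variances with an intensity trend, the mean of a gene's probe sets, and each array left out. With all arrays the median difference for siRNA-140 against siRNA-96 was 0.003, so its sign is not informative; it ran from -0.042 to 0.074 with single arrays left out (lowest without siRNA-140 replicate 3, highest without siRNA-140 replicate 1) and was -0.042 after quantile normalization. With anti-miR-140 set against anti-miR-449 the median ran from 0.019 to 0.109, and was 0.033 after quantile normalization. All probe sets together gave 36 calls without siRNA-96 replicate 1 and 25 without siRNA-96 replicate 2, against 0 with all arrays. The replicate number as a block gave 0 called mitosis genes. Deviations of same-numbered arrays correlated at 0.41, -0.241 and 0.439 in the siRNA experiment and -0.014, 0.103 and -0.032 in the anti-miR experiment. Whether the numbers pair the samples cannot be settled by these values. Deviations of 3 arrays from their own mean are not independent, and siRNA-140 replicate 3 and siRNA-96 replicate 1 lay with the other group.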
